A study of Mus musculus with 41 samples.

Results

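Messenger RNA was compared between kidneys harvested on day 7 and on day 3 after unilateral ischemia-reperfusion injury (UIRI), in which the blood supply of a single kidney is closed and reopened. The comparison holds the 12 libraries of the second cohort whose sample names are WT_IRd7 (n = 6) and WT_IRd3 (n = 6), of 41 libraries in all, and they were found by the library numbers in the labels. Both groups carry WT in the sample name, UIRI as treatment and kidney as tissue, and differ in the labelled time point. No uninjured kidney is among them, so every value below is a change from day 3 to day 7 and not a change from the healthy organ. The design text of the series describes males of 8 to 10 weeks, a left UIRI lasting 21 min with the body core at 34 °C, and a nephrectomy or sham nephrectomy on day 3 for the animals kept to day 7. Its 4 groups of 6 match the first cohort. Sex, age, ischemia time and any sham operation are not given for WT_IRd7 and WT_IRd3, so an operation on day 3 and the passing of time cannot be told apart if one was made. The RNA was taken from frozen pole tissue, and the labels do not say which kidney was cut or that replicates are separate animals. The p-values therefore measure the spread between these samples.

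After ischemia, surviving cells of the proximal tubule lose part of their transport machinery, enter the cell cycle and refill the denuded tubule. Monocytes enter from the blood and become macrophages that clear debris, and fibroblasts lay down matrix. Tubule cells that do not return to their earlier state can keep a program marked by Vcam1 and by NF-kB targets, and kidneys injured on a single side often go on to shrink and scar.

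Total counts were 12431540 to 16018040 on day 3 and 5387275 to 33362940 on day 7. The sample-sheet numbers in the column names fall into a run of 1 to 10, which holds all 6 day 3 libraries and day 7 replicates 1 and 2, and a run of 18 to 23, which holds day 7 replicates 3 to 6. The labels do not call these runs batches. Results are over all libraries. Counts and calls are also given within the first run (2 against 6 libraries) or with the run as a covariate, in particular where a call was lost. Day 7 replicates 3 and 6 lay farthest from the other day 7 libraries on the second principal component, at 72.2 and -36.3, where the day 3 libraries ran from -37.8 to 31.0. Some counts are also given without that pair. Mitochondrially encoded genes took 4.37% ± 0.66 of the counts on day 3 and 2.82% ± 0.40 on day 7 (SD, n = 6 each), with no overlap (two-sided exact permutation test, p = 0.00216, adjusted over 5 library measures p = 0.00541). Mitochondrial ribosomal RNA took 1.53% to 2.50% of the counts on day 3, 1.88% and 1.92% in day 7 replicates 2 and 1, and 0.586% to 0.876% in day 7 replicates 3 to 6, so it moved with the run.

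Kidney markers were present in all libraries. Kap, an abundant androgen-regulated transcript of the proximal tubule, lay between 3937 and 15740 CPM (counts scaled to a common library total, on the library size scaled by TMM) in the 12 libraries, and Umod, of the thick ascending limb, between 626 and 1497. Adrenal Cyp11b1 was at 0 in all 12. Adipoq, made by fat cells, was at 43.6 CPM in WT_IRd3 replicate 1 and 8.60 in WT_IRd7 replicate 2, and at most 1.07 elsewhere.

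Of 15543 genes tested with edgeR, 1330 (8.56%) passed an adjusted p of 0.05. On day 7, 701 genes (4.51%) were higher and 629 (4.05%) were lower. Every list count below is to be read against these shares. Changes over 2-fold were found for 242 called genes (1.56%) that rose and 212 (1.36%) that fell. The 6 values of each day did not overlap in 848 genes (5.46%), of which 707 were called. Within the first run the test called 207 of 16323 genes (1.27%), 103 higher (0.631%) and 104 lower (0.637%). With the run as a covariate it called 349 of 15543 (2.25%), 151 higher (0.971%) and 198 lower (1.27%). The difference between the runs, given the group, passed the test in 74 genes (0.476%), and 10 of these were among the 1330. All day 3 libraries lie in the first run, so that difference rests on WT_IRd7 and on WT_IRNxd7, the other day 7 group of the second cohort. It is taken to be the same in both. With so few libraries, a gene that did not pass is not shown to be free of the run. Of the 1330 called genes, 1328 could be tested within the first run and all 1328 had the same sign there, while 202 passed the test. Those values share the day 3 libraries and day 7 replicates 1 and 2 with the full comparison. In bulk tissue, fewer cells of a type and less RNA per cell cannot be told apart.

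**Figure D1:**
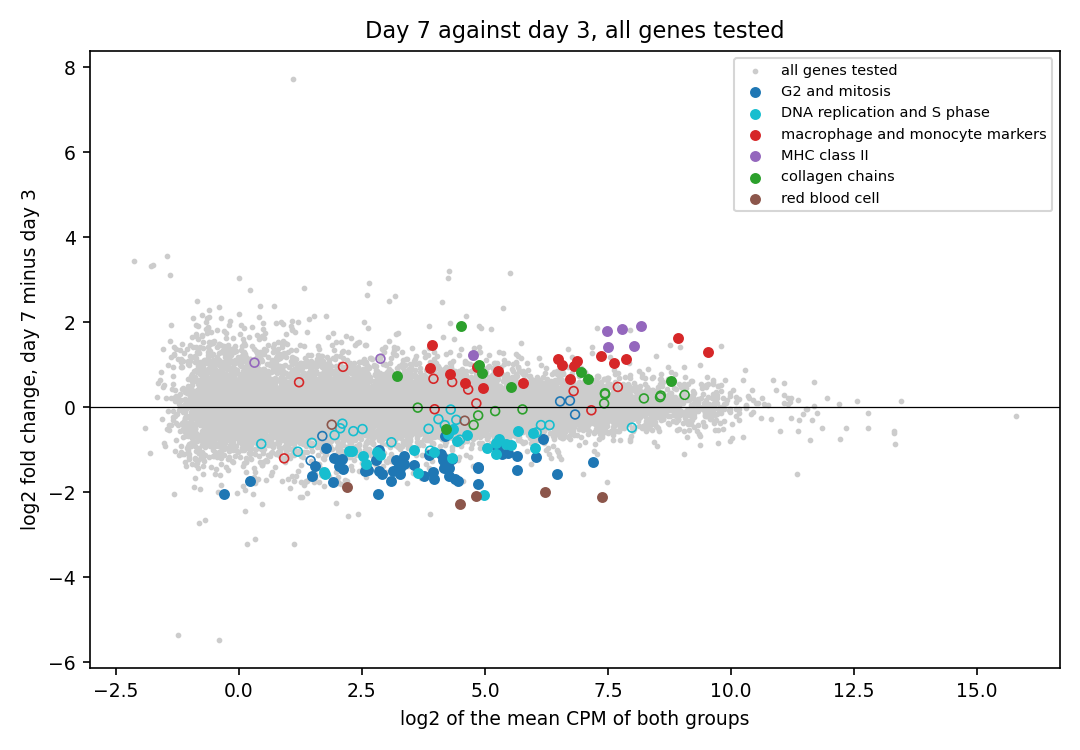
Log2 fold change, day 7 minus day 3, against the log2 of the mean CPM for the 15543 genes tested (grey points). Coloured points are members of 6 gene lists, filled where the adjusted p passed 0.05 and open where it did not. The G2 and mitosis members lie mostly below 0, with a median of -1.39, and the macrophage and MHC class II members mostly above.

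Genes of cell division fell. In the list of G2 and mitosis genes, 52 of 57 members were lower on day 7 and 0 were higher, against 4.05% and 4.51% of all genes. The median log2 fold change was -1.39, where the median over all genes tested was -8.85e-06. The list's 5 members that did not pass were Aurkb (-1.25, adjusted p = 0.051), Ncaph (-0.68), Bub3 (-0.17), Pttg1 (0.14) and Stmn1 (0.16). The days did not overlap in 46 of the 57, against 5.46% of all genes tested. In the first run alone 28 members passed and the median was -1.30. With the run as a covariate 38 passed, and without day 7 replicates 3 and 6 there were 48.

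Promoters of several of these genes are printed here because the list moved together and because the CCAAT box, bound by NF-Y, and the cell cycle genes homology region (CHR), bound by the DREAM and MuvB complexes, are textbook elements of genes switched on in G2 and mitosis. Each line gives the 160 bases before the annotated start of transcription, from RefSeq on GRCm38.p6, in the direction of the gene. Capitals mark CCAAT and the CHR letters TTTGAA or TTTAAA on either strand. Ube2c is at chr2:164769769-164769928 on the plus strand, Ccnb1 at chr13:100786487-100786646 on the minus strand and Top2a at chr11:99024190-99024349 on the minus strand.
Ube2c: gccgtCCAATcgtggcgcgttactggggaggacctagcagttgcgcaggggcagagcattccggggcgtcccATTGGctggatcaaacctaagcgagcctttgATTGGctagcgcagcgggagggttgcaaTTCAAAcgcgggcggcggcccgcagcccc
Ccnb1: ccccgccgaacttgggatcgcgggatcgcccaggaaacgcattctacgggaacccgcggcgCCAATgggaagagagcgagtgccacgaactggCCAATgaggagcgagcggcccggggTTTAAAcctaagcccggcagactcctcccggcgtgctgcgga
Top2a: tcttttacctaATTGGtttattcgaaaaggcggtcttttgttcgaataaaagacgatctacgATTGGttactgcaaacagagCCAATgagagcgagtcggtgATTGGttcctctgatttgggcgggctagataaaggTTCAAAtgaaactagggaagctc
In these stretches the Ube2c promoter holds 3 CCAAT matches, which begin 155, 88 and 57 bases before the start, and 1 CHR match 29 bases before it. The Ccnb1 promoter has CCAAT at 99 and 67 and a CHR match at 42. The Top2a promoter has CCAAT at 149, 98, 78 and 58 and a CHR match at 23.

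RefSeq promoter windows of 300 bases (250 before the start and 50 after) were found for 47 of the 57 members, in 50 windows. CCAAT on either strand was in 38 of them (76%), against 12289 of all 32851 windows (37.4%). A CHR match, TTTGAA or TTTAAA, was in 42 (84%), against 9062 of all windows (27.6%). For the DNA replication and S phase list, an E2F match (TTTCGCGC, TTTGGCGC, TTTCCCGC or TTTGCCGC, either strand) was in 16 of 43 windows (37.2%), against 744 of all (2.26%). For the interferon response list, the letters GAAA, any 2 bases and GAAA were in 14 of 32 windows (43.8%), against 1131 of all (3.44%). Matches within a set may overlap, and a window counts once per set. A match is a description of letters in the window and not a measured binding site.

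Ube2c, the ubiquitin-conjugating enzyme that works with the anaphase-promoting complex, had a lowest, median and highest value of 39.9, 45.3 and 50.3 CPM on day 3 and of 10.5, 13.4 and 13.7 on day 7. The days were apart by a wide gap, and the log2 fold change was -1.80 (SE 0.12, edgeR adjusted p = 1.06e-07), or -1.71 within the first run (adjusted p = 0.000718). Birc5, which encodes survivin of the chromosomal passenger complex, ran 109, 134 and 154 CPM on day 3 against 37.1, 45.2 and 52.6 on day 7 (log2 fold change -1.56, SE 0.12, adjusted p = 2.49e-07). Every day 7 library was below every day 3 library for both.

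Mki67, the gene of the proliferation antigen Ki-67, had 27.6, 31.8 and 43.1 CPM on day 3 and 7.86, 10.1 and 11.8 on day 7 (log2 fold change -1.74, adjusted p = 2.33e-06). Top2a, a topoisomerase that separates the sister strands, had 189, 201 and 238 CPM on day 3 and 69.0, 85.5 and 102 on day 7 (-1.28, adjusted p = 5.64e-07). Cyclin B1 (Ccnb1), taken after the fits and outside the naming rule, had 16.0, 20.7 and 25.5 CPM on day 3 and 3.93, 6.89 and 8.43 on day 7 (-1.61, adjusted p = 1.09e-05). For all 3 genes the days did not overlap. Foxm1, a transcription factor of G2 genes, fell by 1.23 on the log2 scale (adjusted p = 1.42e-05), and Anln, an actin-binding protein of the cleavage furrow, by 2.04 (adjusted p = 0.000263).

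Genes of DNA replication fell as well, in fewer members and by less. Of the 46 S phase genes, 26 passed with a lower value and 0 with a higher one, all 46 had a negative sign, and the median was -0.83. By the first run alone 13 were lower, with the same median of -0.83, and with the run as a covariate 16. Rrm2, the regulated subunit of ribonucleotide reductase, had 41.0, 49.4 and 67.2 CPM on day 3 and 10.5, 11.7 and 15.6 on day 7 (log2 fold change -2.06, SE 0.16, adjusted p = 2.23e-07). Mcm3, of the replicative helicase, had 45.6, 52.3 and 70.7 CPM on day 3 against 26.8, 30.3 and 35.2 on day 7 (-0.87, adjusted p = 0.000339). Neither gene overlapped between days, and the fold of Rrm2 was larger than that of any other called S phase member. The histone chaperone subunit Chaf1a fell by 1.20 (adjusted p = 0.000117).

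Among 26 p53 targets and CDK inhibitors, 2 rose (7.69%) and 3 fell (11.5%), against 4.51% and 4.05% of all genes. EdgeR called 0 of 26 within the first run and with the run as a covariate, with 7 and 10 at an unadjusted p under 0.05. Cdkn2a, which encodes p16 and p19Arf, rose from 1.36, 2.22 and 3.00 CPM to 3.07, 4.82 and 6.03 (log2 fold change 1.11, adjusted p = 0.0175). Its call was lost within the first run (1.18, adjusted p = 0.103) and with the run as a covariate (0.86, adjusted p = 0.186). Cdkn1a, the gene of p21, had 88.2, 99.3 and 152 CPM on day 3 and 59.1, 83.9 and 102 on day 7, with overlap (-0.38, adjusted p = 0.129). Bbc3 (Puma), a p53-induced trigger of apoptosis, rose by 0.80 (adjusted p = 0.0104), and the kinase gene Plk2 fell by 0.77 (adjusted p = 0.00519). Both calls were lost within the first run (adjusted p = 0.178 for Bbc3 and 0.182 for Plk2) and with the run as a covariate (0.105 and 0.0946).

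Macrophage genes rose. Of 29 markers of macrophages and monocytes, 18 were higher on day 7 and 0 lower, with a median of 0.79, and the summed level of the list was 1858 to 2489 CPM on day 3 and 3392 to 5921 on day 7. Within the first run 7 passed (median 0.52), with the run as a covariate 7, and without day 7 replicates 3 and 6 there were 14. Lyz2, the lysozyme of macrophages and monocytes, had 192, 241 and 292 CPM on day 3 and 587, 731 and 904 on day 7 (log2 fold change 1.64, SE 0.15, edgeR adjusted p = 1.73e-06, and 1.49 within the first run). The complement component C1qc had 56.3, 60.5 and 75.9 CPM against 108, 121 and 170 (1.003, adjusted p = 0.0001). Both were apart between days. Adgre1, which encodes F4/80, rose by 0.79 (adjusted p = 0.00822, lost within the first run at 0.245), while the blood monocyte genes Ccr2 (0.09), Ly6c2 (0.59) and Itgam (-0.05) did not pass.

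Genes of lipid-handling and scavenging macrophages split. Of 20 tested, 5 rose and 0 fell, and 2 of 20 passed within the first run. Apoe, a lipid carrier, had 381, 482 and 600 CPM on day 3 and 942, 1332 and 1675 on day 7 (log2 fold change 1.45, adjusted p = 1.05e-05). Gpnmb, a glycoprotein of lysosomes, had 19.2, 27.8 and 34.7 CPM against 54.2, 80.5 and 97.3 (1.52, adjusted p = 1.42e-05). Both kept their call within the first run, at 1.30 (adjusted p = 0.0048) and 1.57 (adjusted p = 0.00159). The haptoglobin-hemoglobin receptor Cd163 rose by 1.55 (adjusted p = 0.00496, 0.157 within the first run) and the lipid sensor Trem2 by 0.85 (adjusted p = 0.443 within the first run). Mrc1 (0.01), Arg1 (-0.58) and Spp1 (-0.03), of alternatively activated or matrix-rich macrophages, did not pass. Spp1 is also in the tubular injury list, with a mean of 2978.5 CPM on day 3 and 2908.2 on day 7. The part of macrophages in its value was not tested.

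**Figure D2:**
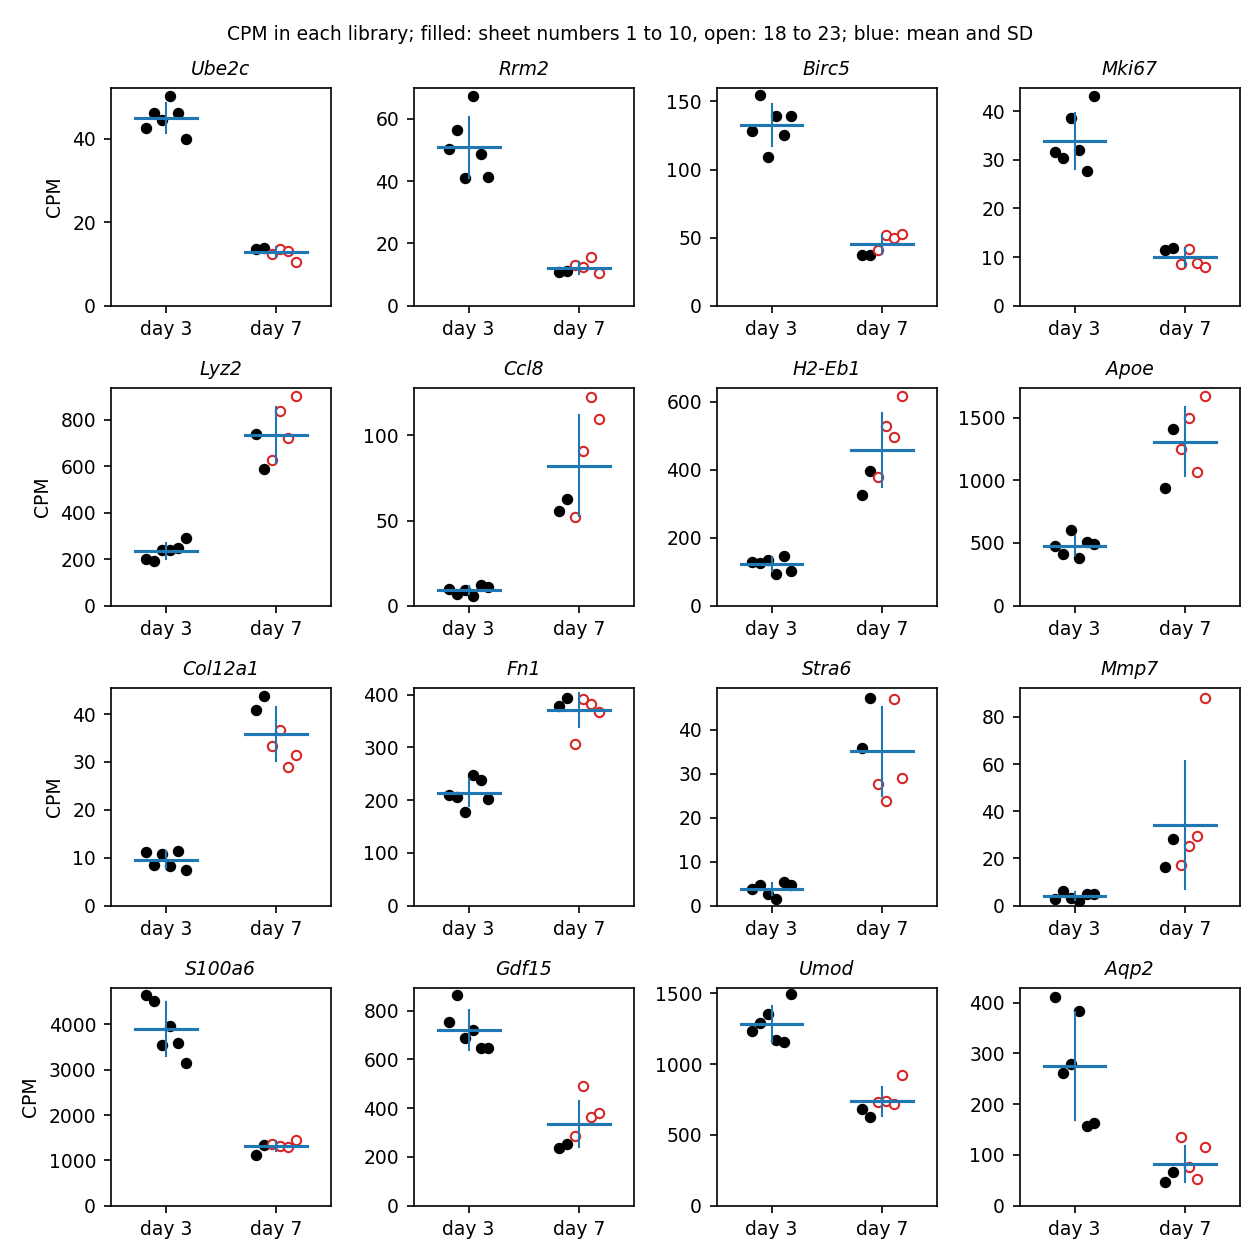
CPM of 16 genes in each library, on linear axes that start at 0, for day 3 and day 7 (6 libraries each). Filled points are sheet numbers 1 to 10 and open points 18 to 23, and the blue lines are mean and SD. No panel has overlapping days, and in Ccl8 and H2-Eb1 the 3 highest day 7 values are open points.

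The antigen-presenting genes of MHC class II were higher on day 7, and their call depended on the run. H2-Eb1, a beta chain, had 92.4, 127 and 147 CPM on day 3 and 325, 445 and 615 on day 7 (log2 fold change 1.90, SE 0.38, adjusted p = 0.00328). H2-Ab1 had 81.7, 93.0 and 125 CPM against 200, 345 and 488 (1.84, adjusted p = 0.00207). Cd74, the invariant chain, had 92.5, 135 and 203 CPM against 244, 378 and 545 (1.44, adjusted p = 0.00594). All 3 were apart between days, and Cd74 was not called within the first run (adjusted p = 0.12). Of the list's 8 genes 6 rose, 0 fell, and the median was 1.43. The master regulator Ciita did not pass (1.14, adjusted p = 0.0914).

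Within the first run 3 of the 8 passed, with a median of 1.14. With the run as a covariate edgeR called 0 of 8, the median was 0.87, and 7 had an unadjusted p under 0.05. H2-Ab1 and H2-DMb1 also passed the test of the run itself (adjusted p = 0.0381 and 0.0276). In the first run alone H2-Ab1 was 1.10 higher (adjusted p = 0.0198) and H2-Eb1 1.56 higher (adjusted p = 0.00757). H2-Ab1 was at 200 and 212 CPM in the day 7 libraries of the first run and at 290 to 488 in those of the second, all above the day 3 maximum of 125.

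A pair of class II promoters are shown since CCAAT, bound by NF-Y, is the Y box of these genes. H2-Eb1 is at chr17:34305707-34305866 on the plus strand and H2-Aa at chr17:34287824-34287983 on the minus strand, each 160 bases before the start, with CCAAT on either strand in capitals.
H2-Eb1: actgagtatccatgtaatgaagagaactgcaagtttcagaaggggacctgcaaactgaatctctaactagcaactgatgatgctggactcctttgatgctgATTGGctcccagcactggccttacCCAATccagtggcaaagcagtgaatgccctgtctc
H2-Aa: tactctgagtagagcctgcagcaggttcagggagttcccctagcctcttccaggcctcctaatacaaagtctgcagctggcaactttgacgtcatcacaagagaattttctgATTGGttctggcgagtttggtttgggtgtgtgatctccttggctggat
H2-Eb1 has CCAAT 59 and 35 bases before the start and H2-Aa has it at 48. Of 6 windows of 300 bases found for 5 list members, 5 held CCAAT, against 37.4% of all windows.

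Some lymphocyte and dendritic cell genes rose, from low levels. In the T and NK cell list 4 of 17 tested genes rose and 0 fell, and the summed level of the list went from 28.6 to 38.9 CPM on day 3 to 50.3 to 113 on day 7. The first run gave 2 called of 19. With the run as a covariate edgeR called 0 of 17, with 3 at an unadjusted p under 0.05, and without WT_IRd7 replicate 5 it called 2. Ccl5, a chemokine of T and NK cells, had 6.47, 7.34 and 10.4 CPM on day 3 and 14.8, 29.8 and 50.9 on day 7 (log2 fold change 1.99, adjusted p = 0.00139, or 0.0797 with the run as a covariate). Of 8 dendritic cell genes 3 rose (37.5%), among them Itgax (1.37, adjusted p = 0.000186), which macrophages also express, and a single one passed within the first run. The summed level of the dendritic cell list was 95.4 to 172 CPM on day 3 and 186 to 218 on day 7. Of 8 B cell and plasma cell genes only Cd22 rose (2.82, adjusted p = 5.95e-05), while the defining marker Cd79a was at most 0.045 CPM in any library. The neutrophil genes S100a8 (0.72, adjusted p = 0.199) and S100a9 (0.39, adjusted p = 0.411) did not pass. In their list 1 of 12 rose (8.33%, against 4.51% of all genes).

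Chemokine ligands rose in 8 of 22 tested members (36.4%) and fell in 1 (4.55%), against 4.51% and 4.05% of all genes. Ccl8, a ligand of CCR2 and CCR8 made by resident macrophages, had 5.95, 9.34 and 11.8 CPM on day 3 and 52.2, 76.7 and 122 on day 7, a log2 fold change of 3.17 (SE 0.34, adjusted p = 8.92e-06). Cxcl5, a neutrophil attractant made by epithelium, had 7.83, 12.2 and 17.3 CPM against 31.0, 46.7 and 56.0 (1.91, adjusted p = 6.31e-05). Both were apart between days and were called within the first run, at 2.7 and 1.98. Cxcl10 (1.40) and Cxcl1 (1.16) rose and Ccl7 fell by 0.98, and all 3 calls were lost in both run settings, at adjusted p of 0.199 (Cxcl10) and 0.501 (Ccl7) within the first run. Without WT_IRd3 replicate 1 or without WT_IRd3 replicate 3 the number that rose was 5. The number was 3 within the first run, 2 with the run as a covariate, and 4 without day 7 replicates 3 and 6.

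Complement genes rose in 9 of 20 tested members and fell in 0, with a median of 0.43. C3, the central component, rose from a mean of 271 to 727 CPM (log2 fold change 1.42, adjusted p = 0.00401), and C4b from a median of 39.5 to 72.8 (1.05, adjusted p = 0.00313). Neither was called within the first run (adjusted p = 0.133 and 0.089) or with the run as a covariate (0.104 and 0.0977). A single member passed within the first run and a single member with the run as a covariate. Interferon response genes rose in 4 of 34 members (11.8%, against 4.51% of all genes), with 33 of 34 positive and a median of 0.51. The median was 0.18 within the first run, where edgeR called 0 and 9 had an unadjusted p under 0.05. Leaving out any of 8 libraries brought the 4 down to 1 (WT_IRd3 replicates 1, 2, 3 and 5 and WT_IRd7 replicates 3, 4, 5 and 6).

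Matrix genes rose in parts. Among 21 collagen chains 8 rose and 1 (Col6a1, -0.51, adjusted p = 0.393 within the first run) fell, with a median of 0.29, and 6 rose within the first run and 7 with the run as a covariate. Col12a1, a fibril-associated collagen, had 7.42, 9.64 and 11.5 CPM on day 3 and 29.0, 35.0 and 43.7 on day 7 (log2 fold change 1.90, SE 0.14, adjusted p = 1.78e-07). Col1a1, of fibrillar type I collagen, had 298, 347 and 402 CPM against 481, 538 and 617 (0.62, adjusted p = 0.000841). Neither overlapped between days, and both were called within the first run, at 2.14 and 0.73. Col1a2 (0.28) and Col3a1 (0.21), partners of type I and type III collagen, did not pass.

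Among 26 matrix glycoproteins 9 were higher and 0 lower (median 0.40). The higher ones numbered 4 within the first run and 6 with the run as a covariate. Fn1, fibronectin, had 178, 208 and 248 CPM on day 3 and 307, 381 and 394 on day 7 (log2 fold change 0.79, adjusted p = 0.000307). Thbs2, an adhesive glycoprotein that can bind matrix proteases, had 6.35, 7.74 and 8.36 CPM against 13.1, 15.5 and 19.2 (1.09, adjusted p = 0.00011). Both groups were apart in both genes. Tnc rose by 0.64 and Mfap5, of microfibrils, by 1.14 (adjusted p = 0.0829 within the first run).

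Of 26 matrix proteases, inhibitors and crosslinkers, 12 rose and 1 (Timp3, -0.56, adjusted p = 0.372 within the first run) fell. Mmp7, matrilysin of injured epithelium, had 1.88, 4.16 and 6.16 CPM on day 3 and 16.3, 26.9 and 88.2 on day 7 (log2 fold change 3.05, SE 0.39, adjusted p = 6.31e-05). Its highest value came from a single library, WT_IRd7 replicate 6, and the days did not overlap with or without it. Mmp12, macrophage elastase, had 0.796, 2.51 and 3.79 CPM against 11.2, 15.3 and 21.3 (2.61, adjusted p = 0.000508). The number that rose was 7 without WT_IRd3 replicate 2 and 7 without WT_IRd3 replicate 4, and it was 5 within the first run. Timp1, a protease inhibitor induced by injury, did not pass (0.03, adjusted p = 0.953).

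Few markers of the cells that make matrix passed, and whether they differ from the matrix genes was not tested. Of 19 fibroblast and pericyte markers tested, 2 rose (10.5%) and 1 fell (5.26%), against 4.51% and 4.05% of all genes. The median was 0.18. Thy1 rose by 1.29 and Fap by 1.62, and S100a4 fell by 0.95. The call of Fap was lost without any of WT_IRd3 replicates 1 or 2 or WT_IRd7 replicates 1 or 6. Thy1 and Fap were not called within the first run (adjusted p = 0.122 and 0.328) or with the run as a covariate (0.0633 and 0.151). The summed level of the whole fibroblast and pericyte list was 709 to 959 CPM on day 3 and 723 to 932 on day 7. Pdgfrb (0.30, adjusted p = 0.35) and Acta2 (0.01) did not pass. TGF-beta ligands, activators and targets rose in 6 of 24 and fell in 0, led by Ltbp3, which holds latent TGF-beta in the matrix (0.95, adjusted p = 0.000364), and Tgfb2 (0.88, adjusted p = 0.000568). With the run as a covariate 2 of the 24 passed, and within the first run edgeR called 0, with 6 at an unadjusted p under 0.05 (Ltbp3 at an adjusted p of 0.0785 and Tgfb2 at 0.059).

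The most changed genes by the naming rule included several with roles outside these lists. Stra6, the receptor that takes up vitamin A from its plasma carrier, had 1.57, 4.28 and 5.29 CPM on day 3 and 23.7, 32.4 and 47.3 on day 7 (log2 fold change 3.21, SE 0.33, adjusted p = 5.22e-06, and 3.44 within the first run). Serpina6, the plasma carrier of corticosteroids, rose by 2.93 (adjusted p = 4.24e-07). The ligand gene Wnt2 rose by 2.51 (adjusted p = 1.33e-05), and Nkd2, an inhibitor of Wnt signalling, from 2.86, 5.48 and 7.18 CPM to 23.0, 26.6 and 42.5 (2.47, adjusted p = 2.74e-06). Stra6, Serpina6, Wnt2 and Nkd2 were called within the first run. The rule for the largest changes takes only called genes with days apart, so their lack of overlap was fixed by that choice. The same holds for Ube2c, Rrm2, Anln, Ccl8, Mmp7, Mmp12, Hba-a1, Hba-a2 and Hbb-bs.

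Col10a1, a collagen chain known from growing cartilage, was outside the list and the naming rule and was chosen after its values had been seen. It had 1 count in all 6 day 3 libraries together and 387 counts on day 7, with 12 to 138 in each library. The pooled ratio per scaled count was 367 (exact 95% interval 65.5 to 14528, counting error only). All 6 day 7 libraries lay at 2.24 to 5.16 CPM. Crct1, of epidermal cornification and chosen in the same way, had 2.85, 3.79 and 5.68 CPM on day 3 and 0.187, 0.318 and 0.780 on day 7 (log2 fold change -3.21, adjusted p = 8.92e-06). Il24, a cytokine of injured epithelium, had 1.03, 1.95 and 3.68 CPM against 0, 0.189 and 0.573 (-3.09, adjusted p = 0.000483). These genes were at low levels, and in all 3 the days did not overlap. Il24 was also chosen after its values had been seen, so ratios and lack of overlap here are a description of chosen genes. Wincr1 and Sprr1b, read in the same way, had log2 fold changes of -5.47 and -5.36, with 2 and 1 counts on day 7.

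**Figure D3:**
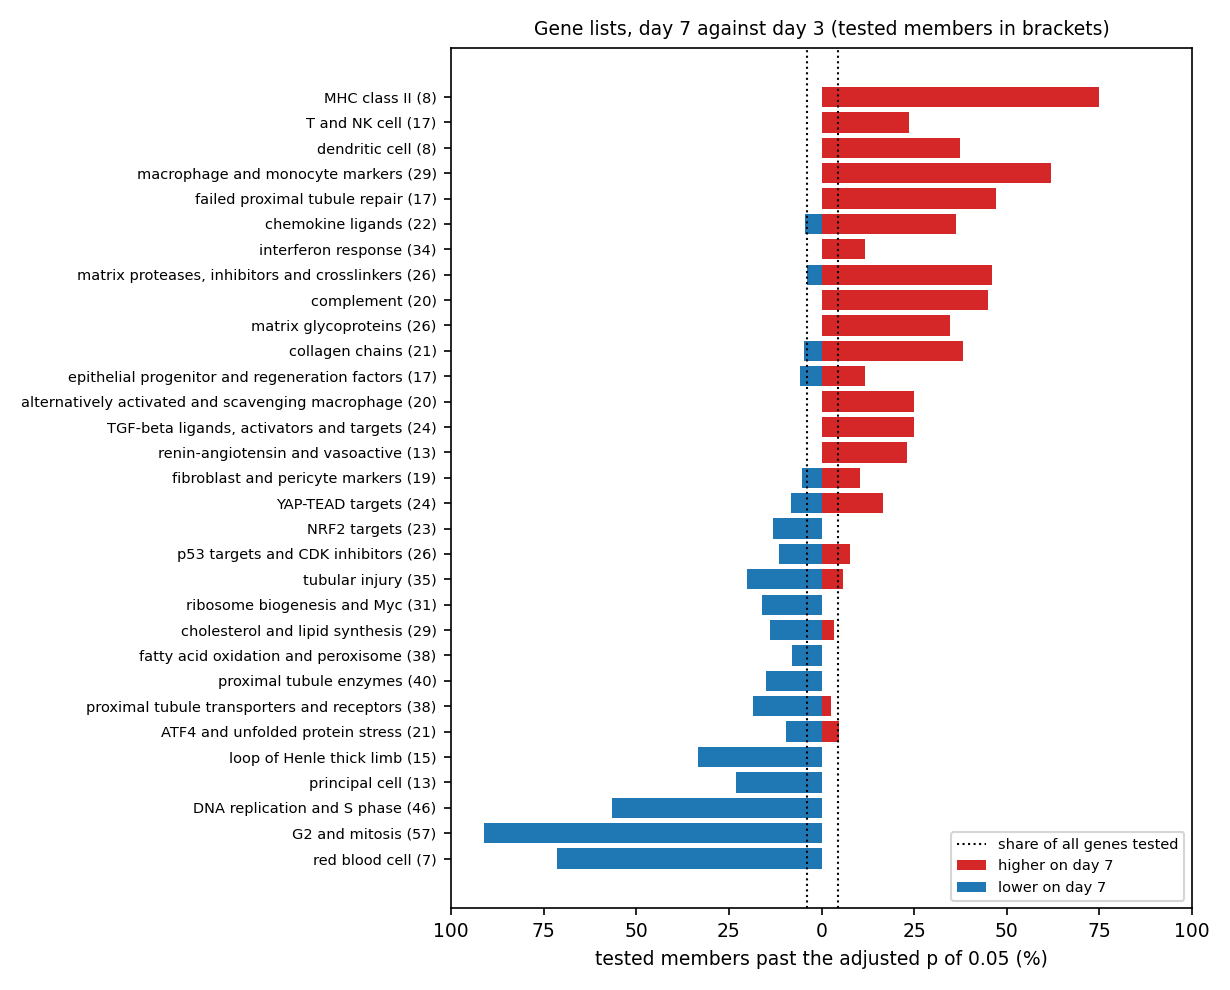
Share of tested members that were higher (right, red) or lower (left, blue) on day 7, for each list with at least 3 called members, ordered by median log2 fold change. Dotted lines mark the shares over all 15543 genes, 4.51% higher and 4.05% lower. G2 and mitosis genes reach 91.2% on the left and MHC class II genes 75% on the right.

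Tubular injury genes did not move as one. Of 35 members 7 fell (20%) and 2 rose (5.71%), against 4.05% lower and 4.51% higher over all genes. The median was -0.17, and within the first run 4 fell and 1 rose. S100a6, a calcium-binding protein of injured and spreading cells, had 3137, 3781 and 4637 CPM on day 3 and 1125, 1325 and 1452 on day 7 (log2 fold change -1.57, SE 0.14, adjusted p = 9.45e-07). Sprr1a, a cornification gene induced by injury, had 118, 177 and 275 CPM against 45.1, 66.5 and 80.1 (-1.56, adjusted p = 4.85e-05). Gdf15, a stress-induced cytokine, had 646, 705 and 864 CPM against 238, 325 and 489 (-1.10, adjusted p = 0.000475). All 3 were apart between days and were called within the first run.

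The most used injury markers were not called. Havcr1, the gene of kidney injury molecule 1, had 420, 781 and 892 CPM on day 3 and 523, 594 and 1141 on day 7 (log2 fold change -0.06, adjusted p = 0.931). Lcn2, neutrophil gelatinase-associated lipocalin, had 141, 161 and 186 CPM against 105, 136 and 262 (-0.11, adjusted p = 0.8). Krt20, a keratin of injured tubules, had 53.8, 68.3 and 110 CPM against 55.4, 71.1 and 100 (0.01, adjusted p = 0.979). The days overlapped for each, with the highest Havcr1 value in WT_IRd7 replicate 3. Ceruloplasmin (Cp) rose by 1.03 (adjusted p = 0.000241), and Sox9, a factor of regenerating tubule cells, did not pass (0.43, adjusted p = 0.151).

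Genes of failed proximal tubule repair rose in 8 of 17 tested members, and 0 fell, with a median of 0.71. Vcam1, an adhesion molecule, had 279, 372 and 439 CPM on day 3 and 493, 699 and 866 on day 7 (log2 fold change 0.94, adjusted p = 0.0166). That call was lost within the first run (0.64, adjusted p = 0.155), with the run as a covariate (0.42, adjusted p = 0.411) and without day 7 replicates 3 and 6. Dcdc2a had 55.0, 60.1 and 78.6 CPM against 105, 108 and 129 (0.86, adjusted p = 9.91e-05) and was called within the first run at 1.02. Sema5a rose by 0.71 (adjusted p = 0.00111), and Tnfaip3, an NF-kB target that limits the pathway, by 1.53 (adjusted p = 0.248 within the first run). The first run alone gave 2 of 17, and the run as a covariate gave 3. Endothelium also expresses Vcam1 and Icam1. Of 20 endothelial markers 0 rose and 2 fell, with a summed level of 1368 to 1612 CPM on day 3 and 1350 to 1601 on day 7, and the part of endothelial cells in these values was not tested.

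Transcripts of proximal tubule transport and metabolism were lower in a minority of genes, and these calls did not hold within the first run. Of 38 transporters and receptors 7 fell and 1 rose (Slc13a2, by 0.78), with a median of -0.29, and of 40 enzymes 6 fell and 0 rose, with a median of -0.25. Slc34a1, the main phosphate transporter, had 2675, 3019 and 4084 CPM on day 3 and 1566, 2146 and 2863 on day 7 (log2 fold change -0.55, adjusted p = 0.0424). The days overlapped, and the call was lost within the first run (adjusted p = 0.254) and without any single library other than WT_IRd3 replicate 4 or WT_IRd7 replicate 5. Slc5a12, a lactate transporter, fell by 1.20 (adjusted p = 0.00397), and the medium-chain acyl-CoA synthetase Acsm3 by 1.34 (adjusted p = 0.00534). The days overlapped for both, and both calls were lost within the first run (adjusted p = 0.347 and 0.0683) and with the run as a covariate (0.126 and 0.117). Megalin (Lrp2, -0.41, adjusted p = 0.233), Slc22a6 (-0.44, adjusted p = 0.12) and Hnf4a (-0.28, adjusted p = 0.248) did not pass. Within the first run edgeR called 0 transporters and 0 enzymes lower, with 9 and 12 at an unadjusted p under 0.05 in either direction. Slc13a2, which rose, kept its call within the first run (1.11, adjusted p = 0.0356) and with the run as a covariate (0.95, adjusted p = 0.0124). It was at -0.11 in the first cohort (adjusted p = 0.943). Leaving out a single library brought the transporters that fell to 3 or 4 in 6 cases (WT_IRd3 replicates 1, 2 and 5, WT_IRd7 replicates 3, 4 and 6) and the enzymes to 3 in 3 cases (WT_IRd3 replicate 5, WT_IRd7 replicates 3 and 6). Kap, whose level follows androgen, had 10393, 11918 and 15740 CPM against 3937, 8299 and 13863 (-0.61, adjusted p = 0.125).

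Few energy genes passed. Fatty acid oxidation genes fell in 3 of 38 and rose in 0 (median -0.24), nuclear genes of the respiratory chain fell in 2 of 66 (median -0.04), and glycolysis genes rose in 2 of 22. These shares were 7.89%, 3.03% and 9.09%, against 4.05% lower and 4.51% higher over all genes. The respiratory chain list depended on the run. Of its 66 members 27 had a positive sign over all libraries and 1 within the first run, where the median was -0.27, and the median was -0.24 with the run as a covariate and -0.21 in the first cohort. Of the 3 lists edgeR called 0 members within the first run, with 6 (fatty acid oxidation), 10 (respiratory chain) and 6 (glycolysis) at an unadjusted p under 0.05.

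Some genes of the thick limb and of principal cells were lower. In the distal convoluted and connecting tubule 1 was higher and 1 lower of 14, and in intercalated cells 0 and 1 of 14. A share of 1 in 14 is 7.14%, against 4.51% higher and 4.05% lower over all genes. Whether the segments differ was not tested. In the thick limb 5 of 15 genes fell and 0 rose, with a median of -0.47. Umod, uromodulin, had 1155, 1264 and 1497 CPM on day 3 and 626, 727 and 925 on day 7 (log2 fold change -0.80, SE 0.12, adjusted p = 0.000216, and -0.98 within the first run, adjusted p = 0.0083). A single member passed within the first run, and without any of WT_IRd3 replicates 1, 2 or 3 or WT_IRd7 replicates 3 or 4 the number was 3. In principal cells 3 of 13 fell and none of the 13 had a positive sign. A single one, Aqp2, passed within the first run and with the run as a covariate. Fxyd4 and Aqp4 did not pass in either setting (edgeR adjusted p = 0.11 and 0.308 within the first run). The median of the list was -0.57, against -0.05 in the first cohort. Aqp2, the vasopressin-regulated water channel, had 157, 270 and 412 CPM against 46.8, 71.6 and 135 (-1.75, adjusted p = 0.00034), with no overlap. Its change was -0.49 in the first cohort (adjusted p = 0.704), and the difference between the cohorts did not pass (adjusted p = 1).

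Few stress genes fell. Hmox1, heme oxygenase 1, had 119, 147 and 193 CPM on day 3 and 56.2, 78.4 and 117 on day 7 (log2 fold change -0.88, adjusted p = 0.00328, and -1.18 within the first run). It was 1 of 3 NRF2 targets of 23 that fell (13%, against 4.05% of all genes), and a single member fell within the first run. Psat1, of serine synthesis, fell by 0.92 (adjusted p = 0.00278), and Myc by 1.34 (adjusted p = 0.00946). Psat1 kept its call within the first run (adjusted p = 0.0304), and Myc did not (0.417, and 0.157 with the run as a covariate). Of the ATF4 and unfolded protein list, which holds Psat1, 1 rose and 2 fell of 21. Ribosome biogenesis genes with Myc fell in 5 of 31 and rose in 0, and without WT_IRd3 replicate 3 that number was 2. EdgeR called 0 of them within the first run, with 7 at an unadjusted p under 0.05, and with the run as a covariate a single one fell. Edn1, the vasoconstrictor endothelin 1, rose from 17.6, 27.4 and 34.2 CPM to 33.3, 56.3 and 74.8 (1.12, adjusted p = 0.000442, and 0.0988 within the first run).

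**Figure D4:**
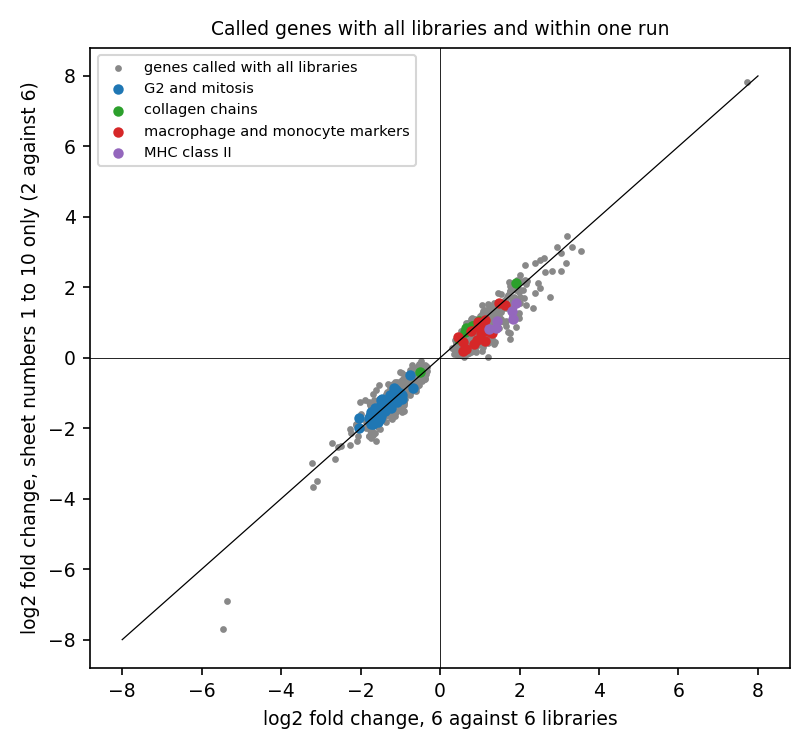
Log2 fold change with sheet numbers 1 to 10 only (2 day 7 and 6 day 3 libraries) against that with all 12 libraries, for the called genes, with the line of equality. All 1328 genes tested in both have the same sign, and the MHC class II points lie below the line. The axes share 8 libraries.

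The first cohort holds the same pair of days, named UIRI d3 and UIRI d7 (n = 6 each), in other libraries. There edgeR called 409 of 15701 genes (2.6%), 195 higher (1.24%) and 214 lower (1.36%). Across the 15263 genes tested in both cohorts the log2 fold changes had a Pearson r of 0.63 and a Spearman rho of 0.56, as a description across genes, which are not independent replicates. Of the 1318 called genes of the second cohort that were tested in the first, 1257 had the same sign there. In both cohorts 300 genes were called with the same sign and 0 with opposite signs. They were 22.8% of the 1318 and 73.5% of the first cohort's 408 calls that were tested here.

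The G2 and mitosis list had 40 of 57 lower members in the first cohort (median -1.50), the macrophage list 15 of 29 higher (median 1.01) and the MHC class II list 5 of 8 higher (median 1.81). Among single genes, Ube2c fell by 2.02 there, Lyz2 rose by 1.57 and Ccl8 by 3.23. Cxcl5, which rose here, was at 0.10 there (edgeR adjusted p = 0.955). Gdf15, which fell here, was at 0.34 there (adjusted p = 0.771). The difference of the changes did not pass for Cxcl5 or Gdf15. The collagen list had 1 of 21 higher in the first cohort (median 0.25), against 8 here (median 0.29). Over all genes edgeR called 2.6% there and 8.56% here. Col1a1 was 0.23 higher there (adjusted p = 0.67) and Col12a1 1.79 (adjusted p = 0.000314). The difference of the changes did not pass for either gene (adjusted p = 1).

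The change differed between the cohorts in 4 of 15631 genes (0.0256%), while 507 had an unadjusted p under 0.05. DESeq2 called 7. The 4 were the hemoglobin genes Hba-a1, Hba-a2, Hbb-bs and Hbb-bt. Hbb-bs had 110, 282 and 463 CPM on day 3 and 43.0, 58.4 and 100 on day 7, and Hba-a2 had 15.4, 41.7 and 52.5 against 4.02, 7.04 and 12.4. In the second cohort they fell by 2.12 (adjusted p = 0.00168) and 2.27 (adjusted p = 0.000247), and in the first their log2 fold changes were 1.94 (adjusted p = 0.334) and 2.14 (adjusted p = 0.253), which did not pass. The near-identical copies Hba-a1 and Hba-a2 may share reads. Hemoglobin took 0.0472% ± 0.0209 of the counts on day 3 and 0.0113% ± 0.0042 on day 7 (SD, n = 6 each, two-sided exact permutation test p = 0.00216, adjusted p = 0.00541). The red blood cell list fell in 5 of 7 tested members, and in a single one within the first run, and the part that blood left in the tissue had in any other result was not tested.

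**Figure D5:**
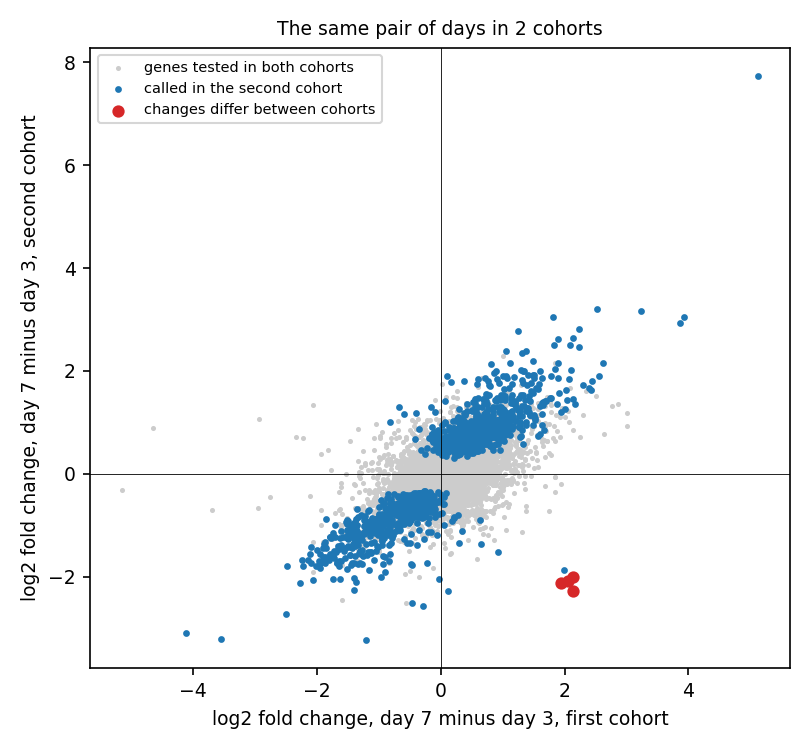
Log2 fold change, day 7 minus day 3, in the second cohort (vertical) against the first cohort (horizontal) for 15263 genes. Blue points were called in the second cohort, and red points are the 4 hemoglobin genes whose change differed between the cohorts. Of the blue points tested in both, 1257 of 1318 share a sign.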

How the data were processed

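The values are raw counts per gene, deposited by the authors in 1 table of 48795 genes and 41 columns. Libraries were made with the QuantSeq 3′ kit from 500 ng of RNA, per the labels' protocols, so reads come from transcript ends. STAR 2.7.11b and GRCm39 are named for the second cohort, and Trimmomatic, STAR, HTSeq 0.6.1 and GRCm38 (mm10) for the first, per the submitters' processing notes. For the second cohort no source used here names the counting tool or strand setting, and without strand a gene and an overlapping antisense gene cannot be told apart.

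The 16 grouped libraries of the second cohort were fitted together, so that WT_IRNxd7 (n = 4) adds to the estimate of the spread, with the quasi-likelihood test of edgeR 4.0.16 in R 4.3.3 (TMM scaling, filterByExpr, Benjamini-Hochberg adjustment over all genes tested). The column of undetermined reads was left out. DESeq2 1.42.0 was an alternative. The cohorts were compared as an interaction in a joint fit. Library measures were compared by exact permutation tests. The fit was tested on simulated data. The run of sheet numbers was inferred from column names. The groups were not treated as paired by replicate number. Deviations of equal numbers correlated from -0.220 to 0.396, which cannot settle whether samples were paired.

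The naming rule takes up to 8 genes per direction with the largest change (called, mean of at least 5 CPM in the higher group, days apart), up to 3 called members per list with the smallest adjusted p, a fixed set of markers, and up to 6 genes whose change differs between cohorts. Other genes were added outside the rule, among them Ccnb1, Trem2, Tnfaip3, C3, Cxcl10, Ccl7, Tnc, Col6a1 and Timp3. Not all genes that the rule named are described, and Xirp2, Cpxm2 and Knl1 are among those left out. The 48 lists, the members and the tests were chosen with earlier results of these data known. Promoters are from RefSeq (GRCm38.p6), which is not the build named for these libraries.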

Additional observations from a re-analysis of the deposited data

Results flagged for a closer look

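Among 288 groups of 6 libraries examined (the 2 days of the named and tissue marker genes), 19 had a single library far from the other 5. By its nominal rate the rule flags about 1 in 20 groups by chance, and the rate in these data was not tested. In WT_IRd7 replicate 6 these were Mmp7 (88.2 CPM), Hdc (24.3), Lcn2 (262), Calb1 (31.6) and Srm (26.2) on the high side and Anln (0.562) and Dusp1 (40.2) on the low side. In WT_IRd7 replicate 3 they were Havcr1 (1141), Foxj1 (15.5) and C1qc (170) on the high side and Fn1 (307) on the low side. Single high values were Slc13a2 in WT_IRd7 replicate 1 (107), Nr1d1 in WT_IRd7 replicate 2 (10.9), Sema5a (230) and C1qa (625) in WT_IRd3 replicate 6, and Psmb8 (34.3) and Hnf4a (167) in WT_IRd3 replicate 4. Low values were Egf in WT_IRd3 replicate 6 (16.2) and Fscn1 in WT_IRd3 replicate 3 (5.51).

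The change from day 3 to day 7 differed between the cohorts for 4 hemoglobin genes, by a test of the difference in the joint edgeR fit. Second minus first cohort, the log2 difference was -4.42 for Hba-a2 (adjusted p = 0.0215), -4.14 for Hba-a1 (0.0215), -4.14 for Hbb-bt (0.0219) and -4.06 for Hbb-bs (0.0278).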

How the results depend on the processing

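The count of called genes was 1337 with RLE scaling, 1163 without a filter, 1565 with the 12 libraries alone, 1229 after thinning to the smallest library and 1847 with DESeq2, against 1330. With the run as a covariate it was 349 (151 higher, 198 lower), within sheet numbers 1 to 10 it was 207 (103 and 104), and without day 7 replicates 3 and 6, chosen after seeing the data, 704 (352 and 352). Within the first run 2 day 7 libraries are left. The cause of the other differences was not tested. Leaving out 1 library gave 923 to 1536 in all, 462 to 811 higher and 457 to 725 lower. The higher count was 466 without WT_IRd3 replicate 2 and 462 without WT_IRd3 replicate 5. With the replicate block the count of called genes in all was 1745, and whether the numbers pair the samples is not known. Of 126 called named genes, 126 kept their call with DESeq2 and with RLE scaling, 62 with the run as a covariate and 49 within the first run, and 0 reversed. The count of genes differing between cohorts was 4, with DESeq2 7, with the replicate block 0, and 0 to 5 without 1 library, with 0 without any of WT_IRd7 replicates 1, 3 or 5, WT_IRd3 replicate 2, UIRI d3 replicates 1 or 6 or UIRI d7 replicate 5, and 2 without WT_IRd7 replicate 6, UIRI d3 replicate 3 or UIRI d7 replicate 6. Havcr1 became 0.0117 without WT_IRd3 replicate 5 and 0.0057 without WT_IRd7 replicate 1 (range over libraries left out -0.27 to 0.0117). Krt20 became -0.0065 without a filter, -0.12 with the run as a covariate, -0.13 within the first run, -0.0195 without day 7 replicates 3 and 6, and -0.088 to 0.17 over libraries left out, below 0 without WT_IRd3 replicates 1, 2 or 3 or WT_IRd7 replicates 5 or 6. The cause was not tested. Leaving out 1 library, the difference in total counts ran from -3463950 to 2131180, and in the share of the 50 most counted genes from -3.07 to -2.09 percentage points. The difference in detected genes was -14.3 over the filtered genes. Day 7 replicates 3 to 6 had 5387275 to 12972587 counts, and the effect of depth was examined only by the thinning.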

Other observations

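Androgen-responsive genes of the proximal tubule overlapped between days. The summed level of the list was 11547 to 16841 CPM on day 3 and 4586 to 15178 on day 7, and 1 of 14 tested members passed. Several markers of other tissues were highest in a single library, WT_IRd3 replicate 1. There Adipoq was at 43.6 CPM, Plin1 at 14.4, Upk3a at 24.3, Upk1b at 5.11 and Krt5 at 6.39. Adrenal Star and Cyp11a1 were highest in other libraries. The part of such tissue in other results was not tested. The urothelium list summed to 34.5 to 140 CPM on day 3 and 20.3 to 44.6 on day 7, with Krt5 the single called member (-1.90, edgeR adjusted p = 0.0413). Its adjusted p was 0.495 within the first run and above 0.05, at up to 0.109, without any 1 of WT_IRd3 replicates 1, 2, 4 or 5 or WT_IRd7 replicates 1, 3, 4, 5 or 6. The adipocyte list summed to 40.9 to 334 CPM on day 3 and 47.0 to 117 on day 7, and 0 of 4 tested members passed, with 0 at an unadjusted p under 0.05.

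The remaining lists, by members higher and lower (all genes 4.51% and 4.05%), were cholesterol and lipid synthesis (1 and 4 of 29), stress of the ATF4 and unfolded protein type (1 and 2 of 21), immediate early and heat shock (1 and 1 of 19), YAP-TEAD targets (4 and 2 of 24), epithelial progenitor factors (2 and 1 of 17), endothelium (0 and 2 of 20), distal tubule (1 and 1 of 14), intercalated cells (0 and 1 of 14), podocytes (0 and 1 of 14), circadian clock (0 and 2 of 20), klotho and phosphate (0 and 1 of 11), proximal tubule transcription factors (0 and 1 of 16), EGF receptor ligands and receptors (0 and 0 of 13, 3 at an unadjusted p under 0.05) and adrenal cortex (0 and 0 of 3). Renin-angiotensin and vasoactive genes rose in 3 of 13. Of these lists edgeR called 0 members within the first run, apart from 2 lower in the ATF4 list, and 0 to 7 members per list had an unadjusted p under 0.05.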
